A study of Homo sapiens with 24 samples.

Results

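The 9 genes described here encode enzymes that digest the matrix around a cell, and proteins that switch these enzymes on or block them. They are the matrix metalloproteases *MMP1*, *MMP7*, *MMP14* and *MMP15*, the metalloprotease inhibitors *TIMP1* and *TIMP2*, the plasminogen activators *PLAU* and *PLAT*, and the receptor *PLAUR*. They were taken by name from the 58051 gene identifiers counted in the files, and all 9 were found. These genes, and the lists of further genes below, were chosen with earlier results of these data known. Counts of them set beside shares of all genes are therefore a description only. RNA was sequenced from HT29, HCT116 and SW480 cells, 3 established human colorectal cancer cell lines. HT29 and SW480 cells carry truncating mutations of *APC*, and HCT116 cells carry an activating mutation of *CTNNB1*, the gene for β-CATENIN. In each line, clones left unedited at *CTNNB1* (WT) were compared with clones in which both alleles had been inactivated (KO). The KO clones lack exon 7, which was deleted with CRISPR/Cas9. In HCT116, WT thus means unedited and not free of the activating mutation. Each group held 2 clones, each grown from 1 sorted cell and sequenced once in round A and once in round B, which gave 4 libraries per line and genotype and 24 in the series. The clones were WT 11, WT 40, KO 28 and KO 38 of HT29, WT 4, WT 6, KO 44 and KO 47 of HCT116, and WT 4, WT 5, KO 17 and KO 21 of SW480. The study describes the KO clones of SW480 as becoming senescent in prolonged culture. No treatment was given.

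Matrix metalloproteases are zinc-dependent endopeptidases that are made as inactive proenzymes. Plasminogen activators cut plasminogen into plasmin, a serine protease that digests fibrin and can open proMMPs. PLAUR holds PLAU at the cell surface, MMP14 and MMP15 are anchored in the plasma membrane, and TIMPs occupy the active site of MMPs. *MMP7* and *PLAUR* are long known as β-CATENIN/TCF target genes in intestinal tumors, and MMP7 (matrilysin) differs from most of the family in being made by epithelial cells.

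The libraries held 22297049 to 29068378 reads assigned to genes (median 27486225). *CTNNB1* was at 5883 to 50939 normalized counts in WT and at 187 to 1312 in KO libraries, so that the labels were met in all 24. A normalized count is the number of reads on a gene divided by 1 size factor per library. Library KO 47A of HCT116 stood apart, since 35449 genes had a read there against 20256 to 24944 in the other 23. Of 6 gut epithelium markers, 5 were above 10 in every library of each group, the exceptions being *CDX2* in HT29 and *VIL1* in HCT116 and SW480. *CDH1* was only at 20.2 to 85.9 in SW480. The leukocyte marker *PTPRC* was at or below 4.28 in every library.

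A promoter is the stretch of DNA just before the start of a gene at which transcription factors assemble, and the 250 bases before the RefSeq start are shown for the members whose windows held words bound by TCF/LEF or AP-1 proteins. RefSeq windows (GRCh38.p14) were at hand for 6 members and not for *MMP1*, *TIMP2* and *PLAT*. For TCF/LEF the words searched on both strands were CTTTGAA and also CTTTGAT besides CTTTGTA as well as CTTTGTT. For AP-1 they were TGAGTCA together with TGACTCA, and the word for the PEA3 group of ETS factors was AGGAAG. Capitals mark these words or their reverse complements, and all sequences run 5′ to 3′ on the strand of the gene.
*MMP7*, chr11:102530748-102530997, minus strand: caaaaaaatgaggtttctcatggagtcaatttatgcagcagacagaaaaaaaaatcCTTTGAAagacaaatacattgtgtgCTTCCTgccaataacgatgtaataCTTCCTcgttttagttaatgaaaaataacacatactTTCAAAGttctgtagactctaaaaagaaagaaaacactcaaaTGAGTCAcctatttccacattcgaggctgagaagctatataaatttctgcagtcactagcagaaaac
*PLAU*, first start, chr10:73910360-73910609, plus strand: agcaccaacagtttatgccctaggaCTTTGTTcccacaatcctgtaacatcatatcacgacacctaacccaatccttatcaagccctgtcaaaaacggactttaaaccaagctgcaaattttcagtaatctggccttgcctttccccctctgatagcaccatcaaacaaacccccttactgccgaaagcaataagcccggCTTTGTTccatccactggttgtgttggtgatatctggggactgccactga
*PLAUR*, chr19:43670170-43670419, minus strand: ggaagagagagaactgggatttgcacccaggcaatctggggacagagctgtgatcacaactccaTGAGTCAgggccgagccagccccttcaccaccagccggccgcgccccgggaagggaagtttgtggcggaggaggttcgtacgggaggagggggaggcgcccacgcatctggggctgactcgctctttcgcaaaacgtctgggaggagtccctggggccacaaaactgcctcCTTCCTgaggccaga

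The *MMP7* window held a TCF/LEF word that begins 194 bases before the start and another at 109 bases, an AP-1 word at 67 bases, and PEA3 words at 169 and 145 bases. The window of the first *PLAU* start held 2 TCF/LEF words, at 225 and 50 bases. The window of the second *PLAU* start, chr10:73910882-73911131, held only a PEA3 word, at 221 bases. In *PLAUR* the words were an AP-1 word at 186 bases and a PEA3 word at 15 bases. *TIMP1* held 1 PEA3 word, and the windows of *MMP14* and *MMP15* held none. Of 34943 RefSeq windows of this length, 12% held at least 1 TCF/LEF word, 1.21% at least 2, 4.22% an AP-1 word and 28.7% a PEA3 word. These are matches of letters, and binding was not measured. AT-rich DNA holds more of the TCF/LEF words, and the *MMP7* window had a GC content of 33.6% against 46.8% in the first *PLAU* window and 63.2% in that of *PLAUR*.

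On GRCh37, the build to which the authors aligned, *MMP7* (ENSG00000137673) lies at chr11:102391239-102401481 and *MMP1* (ENSG00000196611) at chr11:102660132-102668891, both on the minus strand. *MMP14* (ENSG00000157227) lies at chr14:23305769-23318250 and *MMP15* (ENSG00000102996) at chr16:58059658-58080805. *TIMP1* (ENSG00000102265) lies at chrX:47441807-47446188 and *TIMP2* (ENSG00000035862) at chr17:76849059-76921469. *PLAU* (ENSG00000122861) lies at chr10:75668935-75677254, *PLAUR* (ENSG00000011422) at chr19:44150247-44174699 and *PLAT* (ENSG00000104368) at chr8:42032236-42065227. The library kit does not mark strand, so reads of overlapping genes on opposite strands cannot be told apart. *PLAU* shares 915 exon bases with the antisense gene *C10orf55*, which had at most 30.8 normalized counts in any library.

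The first comparison asked what the loss of β-CATENIN does to these genes in each line. In SW480 cells 5 members rose in the KO clones, *PLAU* by far the most, and in HCT116 cells *PLAU* and *TIMP2* rose. In HT29 cells *TIMP2* and *PLAUR* rose. No member was called lower in any line, though *MMP15* in SW480 was just short of the fold threshold. A gene was called where its adjusted p from limma was under 0.05 and its absolute log2 fold change over 1, and "rose" is used only of called genes. In HT29, 2 of the 7 members tested were called, against 2.3% of 14921 genes. In HCT116 it was 2 of 8 against 5.06% of 15404 genes, and in SW480 5 of 8 against 17.5% of 16325 genes. All 9 of these calls were for higher values in KO, a direction called for 1.9% of all HT29 genes, 3.17% of HCT116 genes and 10.7% of SW480 genes, whereas lower values in KO were called for 0.402%, 1.89% and 6.76%. Over all genes tested the median log2 fold change was 0.03 (HT29), −0.01 (HCT116) or −0.0042 (SW480). The SW480 count includes *MMP1*, which was tested there only because its KO libraries reached the minimum of 10, and leaving it aside 4 of 7 were called. *MMP1* was not tested in HT29 and HCT116, *PLAT* not in HT29 and *MMP7* not in SW480, since too few libraries reached 10. All p-values treat the 4 libraries of a group as separate samples although they came from 2 clones. The fits held no term for the round, and with the round as a block *TIMP2* lost its call in HT29 and in HCT116.

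**Figure D1:**
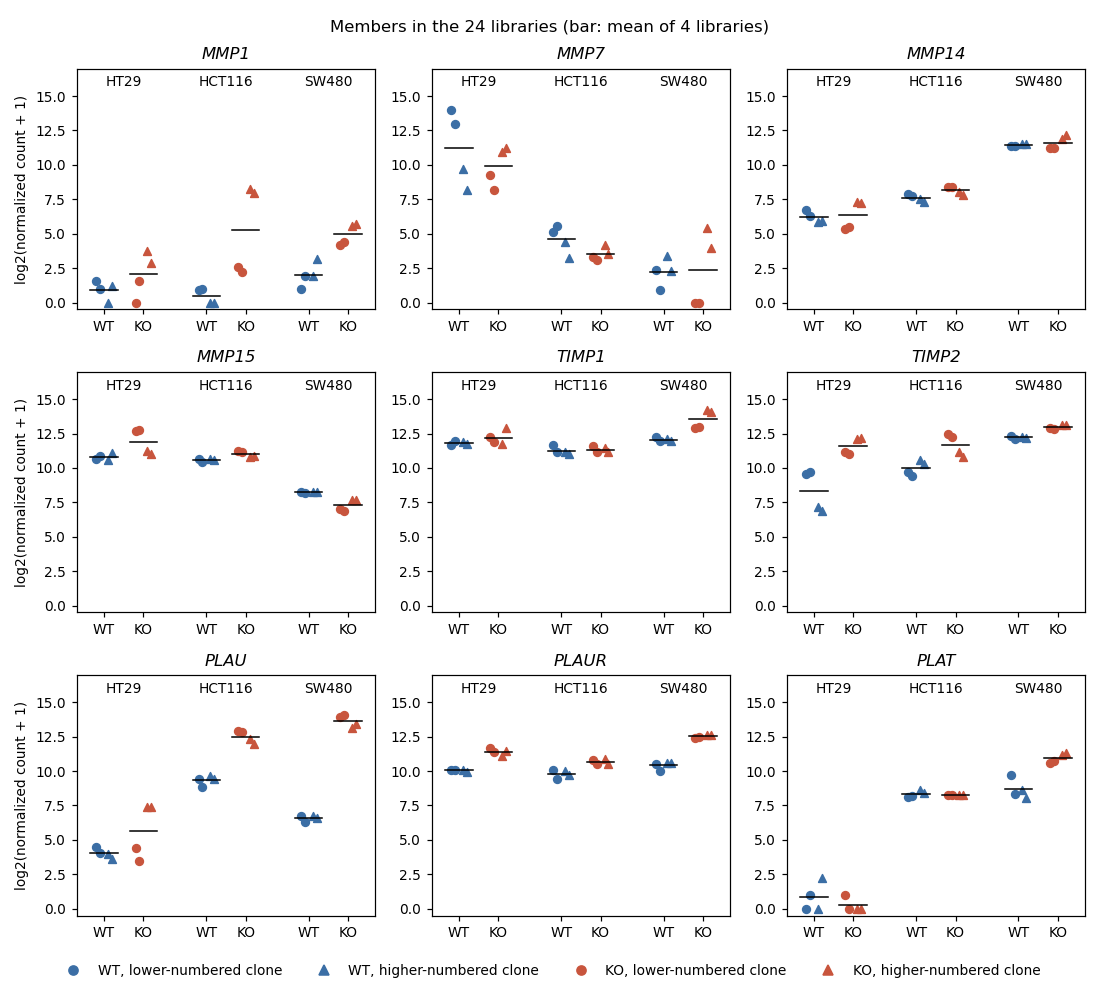
Each panel plots 1 member on the log2 scale of the normalized count plus 1 (vertical axis) in the WT (blue) and KO (red) libraries of the 3 lines (horizontal axis), where circles and triangles are the lower- and the higher-numbered clone of a group and the bar is the mean of the 4 libraries. *PLAU* separates WT from KO libraries in HCT116 and SW480, while in HT29 only the triangles of clone KO 38 are high.

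*PLAU* encodes urokinase (uPA), the activator that works at the cell surface. In SW480 its normalized counts were 104 and 78.1 in rounds A and B of WT 4, and 107 and 96.9 in WT 5. In KO 17 they were 15726 and 17285, and in KO 21 they were 8980.0 and 10797. Every KO library was thus at least 8980.0 and no WT library exceeded 107. This was a log2 fold change of 7.04 (SE 0.20, adjusted p = 5.61e-09 from limma). Over 22 alternatives of the analysis it ran from 6.67 to 7.41 with adjusted p-values of 0.00033 at most. In HCT116 the WT libraries were at 682 and 464 in WT 4 and at 789 and 696 in WT 6. The KO libraries were at 7619 and 7141 in KO 44 and at 5052 and 3892 in KO 47. The groups did not overlap, and the log2 fold change was 3.15 (SE 0.22, adjusted p = 8.06e-06). In HT29 the 4 WT libraries were at 11.3 to 21.1. Clone KO 28 was in the same range, at 20.1 and 9.79, whereas KO 38 was at 169 and 162. The log2 fold change of 1.63 (SE 0.88, adjusted p = 0.396) did not pass the test. Without clone KO 28 it was 3.36 and called (adjusted p = 0.00355), without KO 38 it was −0.11 (adjusted p = 0.911), and DESeq2 called it (2.50, adjusted p = 0.0303). The clones KO 28 and KO 38 differed from each other by −3.46 (SE 0.43, adjusted p = 0.00162), KO 28 being the lower.

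*PLAUR* encodes the urokinase receptor (uPAR), which is tied to the outer membrane by a lipid anchor. Its KO and WT libraries were apart in all 3 lines, as were those of *TIMP2*. In SW480 the WT libraries were at 1451 and 1036 in WT 4 and at 1546 and 1529 in WT 5, and the KO libraries at 5489 and 5550 in KO 17 and at 6379 and 6251 in KO 21. No WT library exceeded 1546 and no KO library was under 5489, with a log2 fold change of 2.10 (SE 0.13, adjusted p = 4.10e-07). In HT29 the WT libraries were at 1085.0 and 1079.5 in WT 11 and at 1087 and 960 in WT 40. The KO libraries were at 3311 and 2661 in KO 28 and at 2212 and 2863 in KO 38. Both KO clones were high, and the log2 fold change was 1.38 (SE 0.16, adjusted p = 0.00315). With the 2 rounds of each clone averaged, so that 2 clones stood against 2, HT29 had an adjusted p of 0.424, while the 22 alternatives together ran down to 5.30e-13. In that setting limma called 0 of all HT29 genes, with 849 at an unadjusted p under 0.05. In HCT116 the WT libraries were at 682 to 1060 and the KO libraries at 1425 to 1906. A log2 fold change of 0.89 (SE 0.16, adjusted p = 0.00388) stayed under the fold threshold.

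*PLAT* encodes the tissue-type activator (tPA), which acts mainly on fibrin-bound plasminogen. In SW480 the WT libraries were at 847 and 314 in WT 4 and at 387 and 255 in WT 5, and the KO libraries at 1567 and 1712 in KO 17 and at 2333 and 2553 in KO 21. The highest WT library, WT 4A, was still below the lowest KO library, and the log2 fold change was 2.31 (SE 0.34, adjusted p = 4.72e-04). In HCT116 the WT libraries were at 275 to 385 and the KO libraries at 299 to 306. The KO libraries lay within the range of the WT libraries, and the log2 fold change was −0.09 (SE 0.14, adjusted p = 0.725). In HT29 all 8 libraries held 3 reads or fewer.

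*TIMP2* encodes an inhibitor that also docks proMMP2 onto MMP14. In HT29 the WT libraries were at 737 and 834 in WT 11 and at 141 and 114 in WT 40, and the KO libraries at 2241 and 2023 in KO 28 and at 4304 and 4557 in KO 38. All 4 KO libraries were above all 4 WT libraries, although the WT clones were far apart. On the log2 scale the difference was 3.28 (SE 0.68, adjusted p = 0.0433), and 16 of 22 alternatives ended the call, with adjusted p-values from 0.00027 to 0.792 over all 22. It was lost without WT 11A (adjusted p = 0.0549), WT 40A (0.123), WT 40B (0.0971) and each of the 4 KO libraries (0.0839 to 0.118). In HCT116 the WT libraries were at 847 and 696 in WT 4 and at 1553 and 1258 in WT 6, and the KO libraries at 5648 and 4762 in KO 44 and at 2231 and 1773 in KO 47. The lowest KO library exceeded the highest WT library by little, and the log2 fold change was 1.63 (SE 0.41, adjusted p = 0.0332). With the round as a block the adjusted p was 0.061. Of 22 alternatives 10 ended the call, and the adjusted p ran from 0.00095 to 0.399. Without clone KO 44 the log2 fold change was 0.94 and not called (adjusted p = 0.0815). In SW480 the WT libraries were at 4501 to 5172 and the KO libraries at 7437 to 8947. They did not overlap, and the log2 fold change of 0.79 (SE 0.08, adjusted p = 2.29e-05) stayed under the fold threshold.

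*TIMP1*, an inhibitor of most secreted MMPs, rose in SW480 alone among the 3 lines. Its WT libraries were at 4757 and 4070 in WT 4 and at 4301 and 4041 in WT 5. The KO libraries were at 7656 and 8178 in KO 17 and at 19096 and 16918 in KO 21, so that both clones were above WT and KO 21 was far above KO 17. KO exceeded WT by 1.48 on the log2 scale (SE 0.29, adjusted p = 0.00244). Without clone KO 21 it was 0.89 (adjusted p = 1.12e-05), which is under the fold threshold, and over 22 alternatives the adjusted p ran from 1.11e-08 to 0.0405. In HT29 the WT libraries were at 3243 to 3887 and the KO libraries at 3351 to 7473, and in HCT116 they were at 2098 to 3173 and at 2305 to 3039.99. The groups overlapped in both lines, with log2 fold changes of 0.37 (SE 0.24, adjusted p = 0.477) and 0.09 (SE 0.15, adjusted p = 0.727).

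*MMP7*, matrilysin, differed widely between clones of the same genotype. In HT29 clone WT 11 was at 16011 and 7969, clone WT 40 at 847 and 286, KO 28 at 618 and 292, and KO 38 at 1986 and 2404. One WT clone was thus above both KO clones and the other WT clone below KO 38, and the log2 fold change of −1.29 (SE 1.26, adjusted p = 0.635) did not pass the test. WT 11 exceeded WT 40 by 4.52 on the log2 scale (SE 0.57, adjusted p = 0.00257), and KO 28 was below KO 38 with −2.36 (SE 0.57, adjusted p = 0.0294). Without clone WT 11 the fold change between KO and WT was 0.97, and without WT 40 it was −3.55, and neither was called. In HCT116 the gene was low, at 33.9 and 47.3 in WT 4, 20.3 and 8.57 in WT 6, 8.84 and 7.54 in KO 44 and 17.1 and 10.5 in KO 47. The KO libraries overlapped with those of WT 6, and the log2 fold change was −1.08 (SE 0.48, adjusted p = 0.163). Without WT 6B it was −1.52 and called (adjusted p = 0.0397), and without clone WT 6 it was −1.84 (adjusted p = 0.0347), against 0.505 in the alternative with the highest adjusted p. In SW480 the gene had between 0 and 9.65 normalized counts in 6 libraries, and 42.0 and 14.4 in KO 21.

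*MMP1*, an interstitial collagenase, was near 0 in most libraries. In HCT116 clone KO 47 had 297 and 245 normalized counts, whereas KO 44 had 4.91 and 3.77 and the 4 WT libraries had 0 or 1 read. The gene was thus high in 1 of the 2 KO clones, in both of its rounds, among them the library that stood apart. In SW480 the WT libraries were at 1.01 to 7.83 and the KO libraries at 16.9 and 20.2 in KO 17 and at 45.8 and 49.9 in KO 21. On values plus 1 this gave a log2 fold change of 2.94 (SE 0.51, adjusted p = 8.11e-04). In HT29 no WT library exceeded 1.92, and KO 38 was at 12.3 and 6.48. *MMP1* shares 223 exon bases with *WTAPP1* on the other strand, which had at most 4.59.

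*MMP14* and *MMP15* encode the membrane-type enzymes MT1-MMP and MT2-MMP, and neither was called in any line. *MMP15* had opposite signs between lines. In HT29 its WT libraries were at 1517 to 2215, KO 38 was at 2356 and 2039 and KO 28 at 6539 and 7025, so that 1 KO clone was high. KO minus WT was 1.12 on the log2 scale (SE 0.42, adjusted p = 0.223), and without clone KO 38 it was 1.93 and called (adjusted p = 0.00175, with 0.883 as the highest of the 22 alternatives). DESeq2 also called it in HT29 (1.28, adjusted p = 0.0336). In HCT116 the WT libraries were at 1387 to 1590.2 and the KO libraries at 1795 to 2347, without overlap, and the log2 fold change was 0.44 (SE 0.12, adjusted p = 0.0306). In SW480 the WT libraries were at 293 to 311, KO 17 at 130 and 117 and KO 21 at 207 and 204, again without overlap. The log2 fold change of −0.92 (SE 0.19, adjusted p = 0.00227) was just short of the fold threshold. In 3 of 22 alternatives it was called lower, without library KO 21A (−1.05), library KO 21B (−1.04) or clone KO 21 (−1.29). *MMP14* differed less. Its WT and KO libraries ran from 55.3 to 105 and from 40.2 to 157 in HT29, from 157 to 240 and from 225 to 342 in HCT116, and from 2608 to 2945 and from 2338 to 4527 in SW480. The groups overlapped in every line, with log2 fold changes of 0.15, 0.55 and 0.18 and adjusted p-values of 0.901, 0.077 and 0.482.

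**Figure D2:**
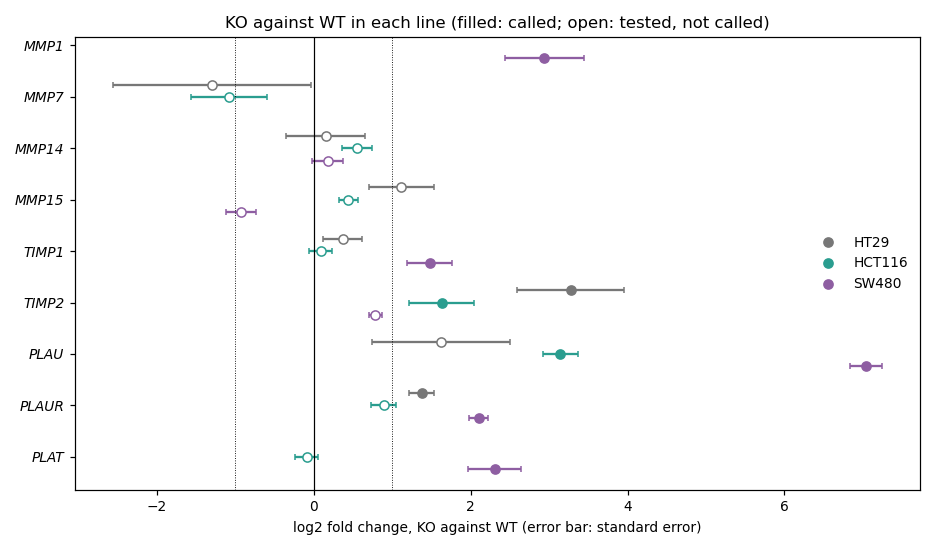
The log2 fold change of KO against WT (horizontal axis, with its standard error) is plotted for each member (vertical axis) in HT29 (grey), HCT116 (green) and SW480 (purple), with filled points for called values and dotted lines at the fold threshold. The filled points all lie to the right of 0, and *PLAU* in SW480, at 7.04, lies farthest out.

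Counting libraries rather than p-values, 2 members in HT29 (*TIMP2* and *PLAUR*) had every KO library above every WT library, against 8.31% of all genes tested. In HCT116 it was 5 of 9 members, of which *MMP1* was not among the genes tested, against 10.9%. In SW480 it was 6 of 9 against 25.3%, and 1 member, *MMP15*, had every KO library below every WT library, against 20.9%. The 6 include *MMP1*, which entered the test there only through its KO libraries, and the 9 include *MMP7*, which was not tested there. In HT29 KO libraries 3 markers of other cell types, *LUM*, *COL1A1* and *ITGAM*, lay above all WT libraries. The fibroblast list of 6 summed to 14.2 to 26.9 in WT and to 108.6 to 1212 in KO libraries, mostly through *LUM*, which was at 0 in all 4 WT libraries and averaged 607 in KO, with *COL1A1* at means of 18.2 and 48.7, while *DCN* was at 0 in all 8. The leukocyte list of 4 summed to 2.0 to 9.6 and to 68.7 to 235.8 through *ITGAM*, with *PTPRC* at or near 0. In SW480 the endothelium list summed to 9.7 to 27.4 in WT and to 115.7 to 234.2 in KO libraries through *VWF*, with *CDH5* at or near 0. The leukocyte list there summed to 0.9 to 8.7 and to 12.8 to 28.0, with *ITGAM* higher in KO (means of 0.494 and 16.6). The fibroblast list summed to 213.4 to 564.0 and to 235.8 to 284.8, with *LUM* higher in KO (0 and 28.5) and *COL1A2* lower (81.7 and 0.465). The gut epithelium markers *CDX2* (means of 1097 and 106) and *EPCAM* (1645 and 818) were also lower in every SW480 KO library than in every WT library. The gut epithelium list of 6 as a whole overlapped there, with sums of 136578.5 to 189296.5 in WT and 146174.2 to 165082.6 in KO libraries. The part of other cell types in the results was not tested beyond these values.

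Whether clones of the same genotype differed was tested within each line. In HT29 2 of 7 members were called between the WT clones, against 7.58% of all genes, and 5 of 7 between the KO clones, against 12.5%. The 2 were *MMP7* and *TIMP2*, and the 5 were these together with *MMP14*, *MMP15* and *PLAU*. *TIMP2* was higher in WT 11 than in WT 40 by 2.62 (SE 0.19, adjusted p = 2.19e-04). *MMP14* was lower in KO 28 than in KO 38, with −1.83 (SE 0.27, adjusted p = 0.00339), and *MMP15* higher by 1.63 (SE 0.22, adjusted p = 0.00258). *TIMP1* and *PLAUR* were not called between clones of HT29. In HCT116 limma called 0 of 8 members between the WT clones, where 4 had an unadjusted p under 0.05 and edgeR also called 0, against 1.44% of all genes. With the round as a block it called 1. Between the KO clones it was 1 of 8, against 3.28%, and this was *TIMP2*, higher in KO 44 by 1.38 (SE 0.17, adjusted p = 0.001). In SW480 limma and edgeR called 0 of 8 between the WT clones, with 1 at an unadjusted p under 0.05, against 1.97% of all genes. Between the KO clones 1 of 8 was called, against 4.61%, and this was *TIMP1*, lower in KO 17 with −1.18 (SE 0.08, adjusted p = 9.33e-08). With edgeR or a pseudocount of 5 the count there was 2.

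The KO effects were then compared between lines, by testing the difference of the log2 fold changes over all 24 libraries. The effect on *PLAU* was larger in SW480 than in HCT116, the difference of HCT116 minus SW480 being −3.89 (SE 0.83, adjusted p = 0.00225), and larger than in HT29, with −5.41 (SE 0.83, adjusted p = 6.44e-05). *PLAT* differed between HCT116 and SW480, with −2.40 (SE 0.57, adjusted p = 0.00542). This call was lost with a pseudocount of 0.1 (adjusted p = 0.258), with the clone as a random effect (0.0958) and without clone WT 5 of SW480 (0.0508), and the lowest adjusted p of its alternatives was 6.02e-06. For HT29 no KO effect on *PLAT* can be compared, since all 8 libraries held 3 reads or fewer and the gene entered the test through the other lines. *TIMP1* differed by −1.39 (SE 0.35, adjusted p = 0.00977) for HCT116 and by −1.11 (SE 0.35, adjusted p = 0.0342) for HT29, each minus SW480. Of 46 alternatives, 4 ended the *TIMP1* call for HCT116 and 18 that for HT29. The effect on *PLAUR* in HCT116 was smaller than in SW480 by a difference of −1.21 (SE 0.22, adjusted p = 4.01e-04). *MMP15* differed in the other direction, with 1.37 (SE 0.41, adjusted p = 0.0292) for HCT116 and 2.04 (SE 0.41, adjusted p = 0.00109) for HT29, each minus SW480. The *MMP15* call was lost in 14 of 46 alternatives for HCT116 and in 1 of 46 for HT29. For *TIMP2* the effect in HT29 exceeded that in SW480 by 2.49 (SE 0.72, adjusted p = 0.0209), a call that 11 of 46 alternatives ended. In all, 5 of 9 members were called between HT29 and SW480, or 4 of 8 with *PLAT* set aside, against 12.3% of 18609 genes, and 5 of 9 between HCT116 and SW480, against 10%. Both comparisons used the same SW480 libraries. Averaging the rounds of each clone left *PLAU* called for HT29, *PLAT* being set aside, and *PLAUR* and *PLAT* for HCT116. Between HT29 and HCT116 limma and edgeR called 0 of 9, with 3 at an unadjusted p under 0.05, against 5.39% of all genes, while DESeq2 called *MMP1*.

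The WT clones show the levels of these genes in each line where *CTNNB1* was not inactivated. They are separate clones and not the cells from which the KO clones grew. Divided by the length of the exons, *TIMP1* was the most abundant member in HCT116 and SW480, with 1706 and 2968 normalized counts per kb on average. In HT29 *MMP7* averaged 2706 per kb and *TIMP1* 2490 per kb, but *MMP7* stood on clone WT 11. *PLAUR* had a narrow range, at 236 per kb in HT29, 202 in HCT116 and 312 in SW480. *MMP14* was at 601 per kb in SW480, 42.5 in HCT116 and 16.1 in HT29. *MMP15* had the reverse order, with 71.8, 359 and 424 per kb.

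Between HT29 and HCT116 WT libraries 5 of 8 members were called, against 37.5% of 17205 genes. Between HT29 and SW480 it was 6 of 8 against 40.1%, and between HCT116 and SW480 4 of 8 against 40.2%. *MMP14* was ordered SW480, HCT116, HT29, with each neighbour called (differences of −3.83 for HCT116 minus SW480 and −1.42 for HT29 minus HCT116, with adjusted p-values of 1.09e-09 and 2.12e-05). *PLAU* was highest in HCT116, next in SW480 and lowest in HT29. It was 2.74 higher in HCT116 than in SW480 (SE 0.22, adjusted p = 1.07e-07), and HT29 minus SW480 was −2.58 (SE 0.22, adjusted p = 1.80e-07). *PLAT* was absent or nearly so from HT29, and between HCT116 and SW480 it did not differ beyond its spread (−0.33, SE 0.47, adjusted p = 0.552). *MMP15* did not pass the test between HT29 and HCT116 (0.23, SE 0.12, adjusted p = 0.0983), and SW480 was below HT29 by 2.54 (SE 0.12, adjusted p = 2.54e-10). *MMP7* was higher in HT29 than in HCT116 by 6.61 (SE 1.12, adjusted p = 2.67e-04) and than in SW480 by 8.96 (SE 1.12, adjusted p = 2.08e-05). Between HCT116 and SW480 *MMP7* did not pass, with 2.35 (SE 1.12, adjusted p = 0.0835). This SE is shared by the 3 lines and includes the gap between the HT29 WT clones. Without HT29 clone WT 11 or WT 40 the same 2.35 was called by limma (adjusted p = 0.00256 and 0.00198). Of 27 alternatives 5 called it and 22 did not, with 0.377 as the highest adjusted p. *TIMP2* was ordered SW480, HCT116, HT29, and its step from HCT116 to HT29, −1.71 (SE 0.59, adjusted p = 0.0244), was −0.40 and not called without clone WT 40 of HT29. *TIMP1* and *PLAUR* were called in none of the 3 comparisons by limma, since their differences stayed under the fold threshold. *TIMP1* had adjusted p-values of 0.00121 and 5.02e-05 in the comparisons of HCT116 with HT29 and SW480. *PLAUR* had adjusted p-values of 0.0433 and 0.00274 in those of SW480 with HT29 and HCT116, and HCT116 minus SW480 was −0.63 (SE 0.16). *MMP1* was not tested.

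**Figure D3:**
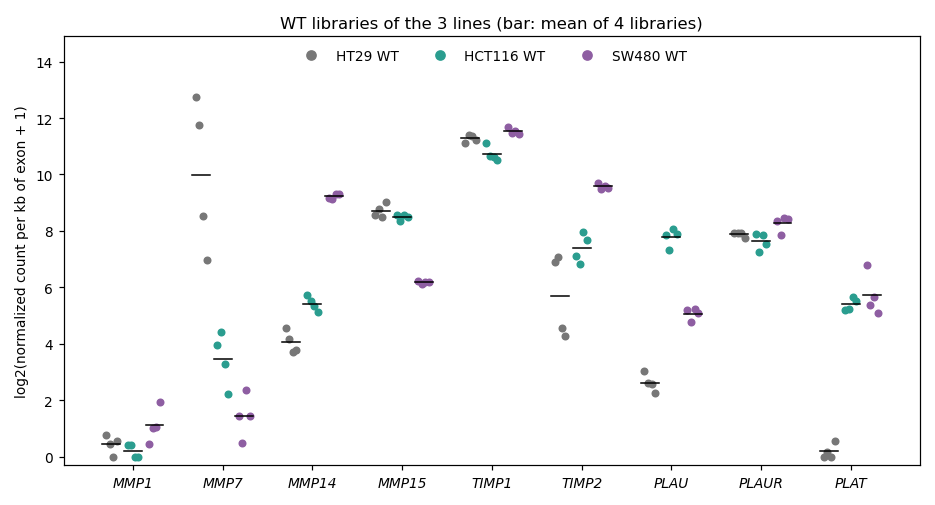
Normalized counts per kb of exon in the WT libraries, on the log2 scale after adding 1 (vertical axis), are plotted for each member (horizontal axis) in HT29 (grey), HCT116 (green) and SW480 (purple), with a bar at the mean of 4 libraries. *MMP14* and *MMP15* run in opposite order across the lines, *PLAUR* spans a narrow range, and the 4 HT29 points of *MMP7* lie in 2 pairs, 1 for each clone.

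In the KO libraries the lines stood in another order for *PLAU*. KO libraries averaged 4475 per kb in SW480, 2010 in HCT116 and 30.6 in HT29, so that SW480, which had 32.7 per kb in WT libraries, was the highest. The order of *MMP14* and of *MMP15* stayed as in the WT libraries, with *MMP14* at 707, 62.7 and 21.1 per kb and *MMP15* at 38.9, 491 and 1061 per kb in SW480, HCT116 and HT29 KO libraries.

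A further 58 genes of the pathway were followed by lists of related proteases, inhibitors, receptors and transcription factors. Of these, 35 were tested in HT29 and 3 were called, all higher in KO, against 1.9% of all genes higher and 0.402% lower. In HCT116, 36 were tested, 2 of them higher and 5 lower, against 3.17% and 1.89%. In SW480, 39 were tested, 14 of them higher and 3 lower, against 10.7% and 6.76%. Of the other matrix metalloproteases tested in SW480 4 of 7 rose, of the other inhibitors and inducer 3 of 5, and of plasminogen, its receptors and inhibitors 5 of 10. The 4 include *MMP28*, at 3.86 to 9.10 in WT and 16.3 to 37.4 in KO libraries, and *MMP9*, of which 1 WT library reached 10. Both entered the test through their KO libraries, as *MMP1* did. *MMP17*, also among the 4, and *TIMP4*, among the 3, needed their KO libraries too, since not all 4 WT libraries reached 10. In HT29 *MMP13*, 1 of the 3 called, entered through its KO libraries. In HCT116 *MMP20*, 1 of the 5 called lower, entered through its WT libraries.

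In SW480, *TIMP3*, the inhibitor that binds to the matrix, was at 1387 to 1739 in WT, at 14573 and 14215 in KO 17 and at 29212 and 24838 in KO 21. The WT and KO libraries were far apart, with a log2 fold change of 3.68 (SE 0.22, adjusted p = 1.02e-06). *TIMP4* was at 9.10 to 16.4 in WT and at 283 to 359 in KO libraries, with 4.62 (SE 0.20, adjusted p = 4.06e-08). *RECK*, a membrane-bound MMP inhibitor, was at 301 to 331 and at 535 to 677, and its log2 fold change of 1.001 lay on the threshold, so that 11 of 22 alternatives ended the call. *SERPINE2*, an inhibitor of both activators, was at 241 to 486 in WT and at 5425 to 5912 in KO libraries, with 4.02 (SE 0.20, adjusted p = 1.78e-07). *SERPINA5*, *PLGRKT* (a plasminogen receptor) and *LRP1* (a receptor that takes up PLAU bound to its inhibitors) rose by 2.46, 1.26 and 1.30.

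Among the other proteases of SW480, *MMP17*, a membrane-anchored enzyme, was at 6.76 to 21.2 in WT and at 459 to 597 in KO libraries, with a log2 fold change of 5.39 (SE 0.28, adjusted p = 1.52e-07). *MMP9*, a gelatinase, was at 5.87 to 13.8 in WT, at 157 and 113 in KO 17 and at 703 and 444 in KO 21, with 4.78 (SE 0.54, adjusted p = 5.54e-05). *MMP19* rose by 1.19. *SPINT1*, an inhibitor of membrane serine proteases, rose by 1.96, whereas *PCSK5* and *PCSK6*, convertases that cut proproteins, fell by 1.88 and 3.51 on the log2 scale.

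In HCT116 the genes with larger values that were called were *MMP17*, *S100A10*, *FOSL1*, *FOSL2* and *ETV1*. *MMP17* was at 99.3 to 170 in WT, at 525 and 464 in KO 44 and at 319 and 244 in KO 47, with a log2 fold change of 1.42 (SE 0.25, adjusted p = 0.00399). *S100A10*, a subunit of a plasminogen receptor, was at 7576 to 9103 in WT and at 2890.0 to 4386 in KO libraries, and fell by 1.16 on the log2 scale. In HT29 they were *LRP1*, at 467 to 744 in WT and 1914 to 4076 in KO libraries (2.05, SE 0.28, adjusted p = 0.00672), and *JUNB*, at 1045 to 1106 and 2133 to 3346 (1.31, SE 0.16, adjusted p = 0.00443). Averaging the rounds of each clone ended both calls, with adjusted p-values of 0.253 for *LRP1* and 0.417 for *JUNB*, against 1.26e-08 and 1.06e-10 as the lowest of their alternatives.

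AP-1 is a dimer of FOS and JUN proteins, and together with ETS factors of the PEA3 group it is known to act on the promoters of several MMP genes and of *PLAU* and *PLAUR*. *FOSL1* rose in HCT116, from 3061 to 4922 in WT to 10671 to 17013 in KO libraries (1.74, SE 0.17, adjusted p = 6.34e-05). It also rose in SW480, from 2279 to 3283 in WT to 5256 to 9123 in KO libraries (1.33, SE 0.19, adjusted p = 2.47e-04). In HT29 it was not called, with −0.49 and an adjusted p of 0.439. *FOS* fell in SW480 by 3.05 on the log2 scale, and *FOSL2* and the PEA3 factor *ETV1* fell in HCT116 by 1.38 and 1.43, calls that ended in 8 and 7 of 22 alternatives. Of the 10 factors, 1 rose in HT29, 1 rose and 3 fell in HCT116, and 1 rose and 1 fell in SW480. Of all genes, 1.9% were called higher and 0.402% lower in HT29, and 3.17% and 1.89% in HCT116. The SW480 counts lie near the 10.7% and 6.76% of all genes called higher and lower there.

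**Figure D4:**
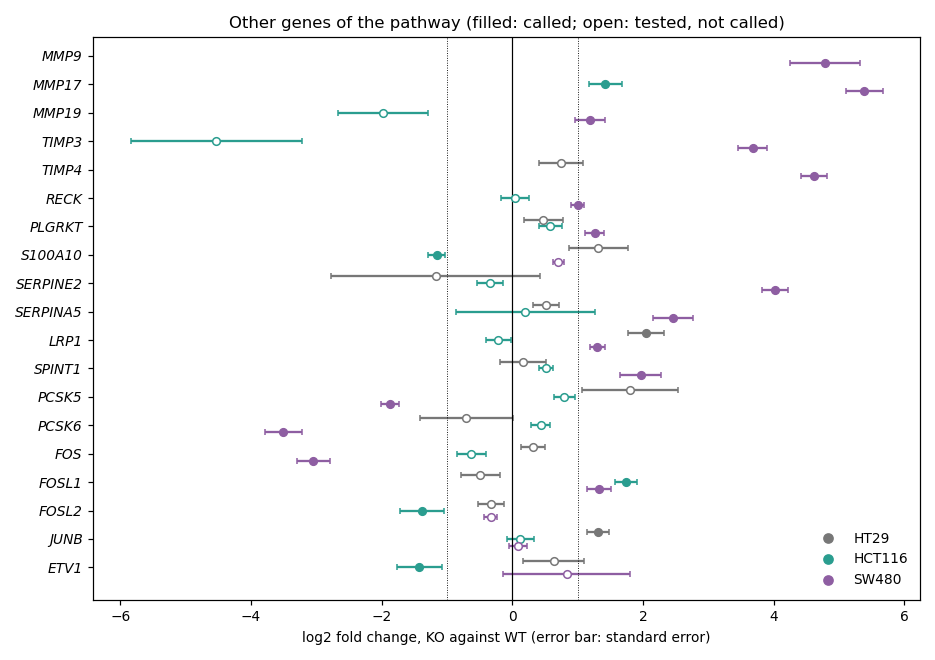
The log2 fold change of KO against WT (horizontal axis, with its standard error) is plotted for 19 of the other pathway genes named by rule (vertical axis) in HT29 (grey), HCT116 (green) and SW480 (purple), with filled points for called values. Most filled points belong to SW480, where *MMP17*, *MMP9*, *TIMP4* and *SERPINE2* lie beyond 4 and *PCSK6* and *FOS* below −3.

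The members were also set against all genes with a mean of at least 100, by Pearson's r over the 24 libraries on log2 of the value plus 1. These libraries share lines, clones and rounds, so that r mostly reads differences between lines and is given as a description. Nearest to *PLAU* was *MELTF*, with r = 0.96, nearest to *PLAUR* was *IFI16*, with r = 0.95, and nearest to *PLAT* was *CERCAM*, with r = 0.99. *MMP14* was nearest to the PEA3 factor *ETV5* (r = 0.98), *MMP15* to *HID1* (r = 0.97), *MMP7* to *HOXA10* (r = 0.94), *TIMP1* to *C5orf15* (r = 0.94), *TIMP2* to *EDA* (r = 0.96) and *MMP1* to *UBE2E3* (r = 0.84). Among the members themselves the highest r was that of *TIMP1* with *PLAUR*, 0.84, and the lowest that of *MMP14* with *MMP15*, −0.92.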

How the data were processed

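The study sequenced 24 RNA libraries of 3 colorectal cancer cell lines. The authors prepared them with a TruSeq v2 kit, which does not keep strand, used STAR 2.7.5b for alignment to GRCh37 and featureCounts 2.0.1 for reads per gene (gene annotation not given in the sources used here). The values deposited by the authors are signal, that is, counts divided by 1 DESeq2 size factor per library (DESeq2 version 2.11.40.6 on Galaxy). Dividing by the smallest value above 0 in a library gave whole reads, within 0.001 of a read, for 100% of genes in all 24 libraries. Totals per library, 22297049 to 29068378, set the precision, and intervals or floors would cover counting error only. For each line the authors also deposited a table of their own comparison (mean, log2 fold change, p-values), which was not used.

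A table of identifiers and symbols named 95.8% of 58051 identifiers, and positions came from a GENCODE annotation on GRCh37. The test was limma 3.58.1 (trend and robust variances) on log2 of the normalized count plus 1, in R 4.3.3, with Benjamini-Hochberg adjustment over all genes tested. A gene entered the test when 4 or more of the libraries fitted reached a value of 10. A call needed an adjusted p under 0.05 together with a log2 fold change beyond 1 in either direction, as in the study. KO was compared with WT and clone with clone over the 8 libraries of a line, the WT libraries of the lines over 12, and KO effects between lines over 24. Fold changes on this scale understate changes of low genes.

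The members and lists were chosen with earlier results of these data known. Other pathway genes were named where they were called in a line, had a mean of at least 100 over its 8 libraries and had KO and WT libraries that did not overlap, and for each member the 3 genes with the highest r were looked up. One gene that met the rule is not reported here. The alternatives were pseudocounts of 0.1 and 5, a minimum of 10 in every library, no minimum beyond a value above 0, edgeR 4.0.16 with TMM or RLE and DESeq2 1.42.0 on the recovered reads, the round as a block, rounds averaged per clone, the clone as a random effect, and each library and clone left out. The scripts were tested on simulated reads, in which DESeq2 made more false calls in HT29 than the limit first set, and the limit for the alternatives was then widened, while that for limma was kept. Figures were drawn with matplotlib 3.10.9 in Python 3.11.15.

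Whether rounds paired the libraries was checked by the correlation across genes of the difference between rounds A and B in each pair of clones. It was over 0.1 in 6 of 6 pairs in HCT116 (0.182 to 0.374), 2 of 6 in HT29 (−0.309 to 0.424) and 1 of 6 in SW480 (−0.0411 to 0.127). Only in HCT116 did the rounds thus look paired in all pairs. The main fits nevertheless left the pairing out in HCT116 as well, and the block was run as an alternative. In limma with the block, *TIMP2* was not called in HCT116 (adjusted p = 0.061). *MMP7* was then called between the HCT116 WT clones (adjusted p = 0.0366).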

Additional observations from a re-analysis of the deposited data

Results flagged for a closer look

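Among 47 groups of 4 libraries with a mean of at least 10, 2 had a library whose gap to its nearest neighbour exceeded Dixon's critical share of the range of the group, where chance gives about 1 in 20. *PLAUR* in HT29 WT was at 959.6 in library WT 40B, and the other 3 libraries lay between 1079.5 and 1087, so that the gap was 0.943 of the range. *PLAT* in HCT116 KO was at 305.6 in library KO 44A, with the other 3 at 298.8 to 299.7 (0.863 of a narrow range).

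The KO effect differed between lines, by the test of the difference itself, for the following members. HT29 minus SW480 was 2.04 for *MMP15*, −1.11 for *TIMP1*, 2.49 for *TIMP2*, −5.41 for *PLAU* and −2.87 for *PLAT*, on the log2 scale. The last value has no meaning as a KO effect in HT29, where *PLAT* had 3 reads or fewer in every library. HCT116 minus SW480 was 1.37 for *MMP15*, −1.39 for *TIMP1*, −3.89 for *PLAU*, −1.21 for *PLAUR* and −2.40 for *PLAT*.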

How the results depend on the processing

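Of 2575 alternative values of 120 member results, 2454 kept their side of the thresholds, 96 lost a call, 25 gained one and none reversed a call. Within the 2454 were 44 values without a call that changed sign. Of the 23 results on other named genes, 8 lost the call in at least 1 alternative. *PLAU* in HCT116 and SW480, and *PLAUR* and *PLAT* in SW480, stayed called in all their alternatives, whereas *TIMP2* did not in HT29 or HCT116. *MMP1* in SW480 stayed called in the 15 alternatives that tested it, against 22 for *PLAU* there. With a SW480 KO library or KO clone left out, or a minimum of 10 in every library, *MMP1* was not tested. For HT29 KO against WT the 2 members called became 1 with edgeR (TMM or RLE), no minimum, the clone as a random effect and without clone WT 40, became 4 with DESeq2, and became 0 with the rounds averaged, where 2 had an unadjusted p under 0.05. Its 343 genes called in all became 784 with DESeq2, 212 with a minimum of 10 in every library, 121 with the clone as a random effect, 0 with the rounds averaged (limma, with 849 at an unadjusted p under 0.05), 213 without clone WT 40, 546 without KO 28 and 583 without KO 38. For HCT116 the 2 members became 1 with no minimum, with the rounds averaged and without clone WT 4 or KO 44, and its 779 genes became 358 with the rounds averaged. For SW480 the 2852 genes became 1833 with a minimum of 10 in every library. Leaving out single libraries gave 1 to 2 members and 115 to 265 genes in HT29, 1 to 2 members in HCT116 and 3 to 5 members for HT29 minus SW480.

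With the round as a replicate block the counts were 1 member and 217 genes in HT29 and 1 member in HCT116, where *TIMP2* was lost (adjusted p = 0.0803 and 0.061), and 1 member, *MMP7*, between the HCT116 WT clones. In the other comparisons the block changed no member call. In HT29 and SW480 the libraries share only a round letter.

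Between HT29 and HCT116 WT libraries the 5 members called became 3 with a minimum of 10 in every library, which removes low members. For HT29 minus SW480 the 5, which include *PLAT*, became 3 with that minimum, with no minimum, with edgeR (TMM or RLE) and without clone WT 40 of HT29 or WT 4 or WT 5 of SW480, and 2 with the rounds averaged. For HCT116 minus SW480 the 5 became 3 with that minimum and without clone WT 4 of HCT116 or WT 5 of SW480, and 2 with the rounds averaged or the clone as a random effect. For HT29 minus HCT116 the 0 became 1 with DESeq2 and without clone WT 11 of HT29 or KO 44 of HCT116, and 3 without KO 38 of HT29. Between the SW480 KO clones the 1 became 2 with edgeR (TMM) or a pseudocount of 5. Averaging leaves 2 values per group, and for the other changes the cause was not tested. Genes at 3 reads or fewer, such as *PLAT* in HT29, are below what this depth can compare.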

Other observations

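The following genes of the pathway were chosen after their values were seen, and no test is given for them. *MMP10* (stromelysin-2) was at 95.3 and 112 in HCT116 KO 47, the clone in which *MMP1* was high, and at 1.88 or less in the other 6 libraries of the line. *MMP13*, another collagenase, was at 76.4 and 57.7 in HT29 KO 28 and at 24.7 and 15.6 in KO 38, against at most 4.94 in the WT libraries of HT29. *TIMP3*, which rose in SW480, was at 160 to 224 in WT libraries of HCT116, at 37.5 and 56.1 in KO 47 and at 0.983 and 0 in KO 44. *MMP20* was at 20.9 to 39.0 in WT and at 0.942 to 7.49 in KO libraries of HCT116.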
